A study of Mus musculus with 6 samples.

Results

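Interferon beta (Ifnb1), interferon gamma (Ifng) and 5 receptor chains (Ifnar1, Ifnar2, Ifngr1, Ifngr2 and Il10rb) were followed in RNA-seq of mouse primary lung fibroblasts. These 7 genes were taken by symbol from a table of 55487 genes. The tested libraries came from wild-type C57BL/6 cells treated for 24 h with 1 µg/mL rmCIRBP, a recombinant form of the mouse cold-inducible RNA-binding protein CIRBP, and the control libraries from wild-type cells given PBS for the same 24 h. Both groups had been kept in 0.1% serum for 24 h beforehand, and each had 3 libraries, made from polyA-selected RNA and sequenced as 1 batch. CIRBP is an RNA-binding protein of cold-stressed cells that, once released, binds Toll-like receptor 4, and the comparison here asks which interferon input could stand upstream of the interferon-stimulated genes that rise after it. The labels do not state whether replicates were separate mice or cultures, so p-values measure the spread between these libraries, which may be technical.

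Type I interferons, among them interferon beta and the interferon alphas, bind a receptor made of the chains IFNAR1 and IFNAR2, which carry the kinases TYK2 and JAK1. Interferon gamma, made mainly by T cells and NK cells, binds IFNGR1 and IFNGR2, which carry JAK1 and JAK2. The type I receptor acts chiefly through ISGF3, a transcription factor complex that includes STAT2 and IRF9, and the interferon gamma receptor through factors that bind GAS elements. IL10RB is the shared chain of the receptors for interleukin 10, interleukin 22 and interferon lambda.

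Upstream sequence was available from RefSeq (GRCm38.p6) for 6 of the 7 genes, all but Il10rb. The 250 bases before the annotated start are shown for the ligand gene Ifnb1 and for the receptor genes Ifnar2 and Ifngr2. These windows held matches to the motifs searched, as did that of Ifng, which is not shown. Capitals mark motif matches, and each run reads 5′ to 3′ along the gene's own strand.
Ifnb1, chr4:88522795-88523044, minus strand: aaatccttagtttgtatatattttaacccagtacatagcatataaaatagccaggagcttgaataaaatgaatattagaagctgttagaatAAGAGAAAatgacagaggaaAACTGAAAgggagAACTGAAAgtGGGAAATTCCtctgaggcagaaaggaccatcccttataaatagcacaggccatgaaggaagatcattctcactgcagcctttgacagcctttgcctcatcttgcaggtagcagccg
Ifnar2, chr16:91372533-91372782, plus strand: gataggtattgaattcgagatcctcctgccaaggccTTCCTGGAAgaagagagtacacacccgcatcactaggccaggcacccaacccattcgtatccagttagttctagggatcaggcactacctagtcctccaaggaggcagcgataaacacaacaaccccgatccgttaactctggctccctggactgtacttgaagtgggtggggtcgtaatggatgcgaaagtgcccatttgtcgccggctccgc
Ifngr2, chr16:91546809-91547058, plus strand: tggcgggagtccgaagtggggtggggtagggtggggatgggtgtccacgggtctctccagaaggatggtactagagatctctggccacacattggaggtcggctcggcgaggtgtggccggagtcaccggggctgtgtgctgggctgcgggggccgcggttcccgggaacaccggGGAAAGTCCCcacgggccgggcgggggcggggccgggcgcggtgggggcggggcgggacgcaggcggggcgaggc

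Both strands were searched for 4 motifs. These were GAS (TTCNNNGAA), the ISRE core (GAAA, any 2 bases, GAAA), the IRF core (AANNGAAA, which lies within the ISRE core) and an NF-kB-type motif (GGGA, any 2 bases, TTCC). Of 32851 mouse promoter windows of the same length, 7.02% held GAS, 2.98% the ISRE core, 21.3% the IRF core and 1.21% the NF-kB-type motif. The Ifnb1 window held 3 IRF cores and, 116 to 107 bases before the start, 1 NF-kB-type match. The Ifnar2 window held 1 GAS match, 214 to 206 bases before the start, and the Ifngr2 window held 1 NF-kB-type match, 75 to 66 bases before it and read on the opposite strand. The Ifng window held 1 GAS match and 1 IRF core. In the windows of Ifnar1 and Ifngr1 none of the 4 motifs was found. A match describes letters and shows no binding.

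Depth was 13677385 to 14001478 counts in the rmCIRBP libraries and 12105584 to 14262375 in the PBS libraries. A pooled count of 0 allows up to 3 counts, or 0.073 CPM (counts divided by TMM-scaled library size) in rmCIRBP and 0.077 CPM in PBS, for counting error only. Of 9 fibroblast markers, all passed the filter on low counts, with Col1a1, a collagen I chain, at 8897 ± 1252 CPM in rmCIRBP and 10579 ± 1435 CPM in PBS (SD, n = 3 each). Dcn, the proteoglycan decorin, was called higher (log2 fold change 1.21, edgeR adjusted p = 0.0261), Thy1, a surface protein (-1.21, 0.0042), and Vim, vimentin (-0.88, 0.00867), were called lower, and Lum, lumican, was low at 1.59 ± 1.04 CPM in rmCIRBP and 1.52 ± 0.287 CPM in PBS. All of 9 T cell markers and 8 NK cell markers fell below the filter on low counts. The T cell markers summed to 0.733 to 2.24 CPM in rmCIRBP libraries and 0.499 to 1.09 CPM in PBS libraries, and the NK cell markers to 0.147 to 0.368 CPM in rmCIRBP and 0 to 0.273 CPM in PBS. Cd3e, Cd3g, Ncr1, Klrb1c, Gzma, Gzmb and Prf1 had 0 counts in all 6 libraries. The 10 macrophage markers summed to 74.3 to 141 CPM in rmCIRBP and 117 to 153 CPM in PBS, with 3 called higher and 2 lower. Lyz2, which was not called, made up most of each sum, at 44.5 to 91.7 CPM in rmCIRBP and 92.7 to 124 CPM in PBS. Those called higher were Marco (log2 fold change 5.52), Siglecf (3.03) and Adgre1 (2.46), and those called lower C1qa (-2.64) and Mrc1 (-1.65), so the sum hides opposite moves. The 7 neutrophil markers summed to 1.23 to 1.69 CPM in rmCIRBP and 0 to 0.25 CPM in PBS. These counts were mainly S100a8 and Csf3r, while S100a9, Ly6g, Elane and Cxcr2 had 0 counts in all libraries. The 6 endothelial markers summed to 5.93 to 8.24 CPM in rmCIRBP and 19.5 to 26.7 CPM in PBS. Most of this was Kdr and Tek, the 2 called lower (log2 fold change -3.48 and -0.99). Pecam1 had 8 counts over the rmCIRBP libraries and 12 over the PBS libraries, Cdh5 had 6 and 4, and Cldn5 had 0 in all. Smooth muscle and pericyte markers, 6 in all, set libraries apart. They summed to 602, 1736 and 185 CPM in rmCIRBP 1, 2 and 3. In PBS 1, 2 and 3 the sums were 1135, 497 and 479 CPM. Myh11, Cnn1 and Actg2 made up most of each sum. Cspg4 was called lower (log2 fold change -2.05, edgeR adjusted p = 0.018), and Rgs5 was not called (1.32, 0.0514). Neither of these followed the order of the sums. Whether RNA of other cell types was present, and its part in the results below, was not tested. In RNA of whole cultures, fewer cells of a type and less RNA per cell cannot be told apart.

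At 24 h hardly any interferon transcript was counted, and no interferon gene had more counts after rmCIRBP than after PBS. Ifnb1, the type I interferon that fibroblasts are known to make (chromosome 4, 88522025 to 88522774, GRCm38), had 0, 0 and 0 counts in the rmCIRBP libraries, against 0, 2 and 1 counts in the PBS libraries. Its only reads were thus in control libraries, and both groups were at or under the 3-count limit, so no fold is given. Ifng (chromosome 10, 118441046 to 118445892) had 0 counts in every rmCIRBP library and 0 counts in every PBS library. Neither gene passed the filter on low counts. Without any filter, edgeR gave Ifnb1 an adjusted p of 0.459. RNA was taken at 1 time, so transcripts made and lost earlier were not measured, nor was secreted protein.

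The other interferon genes were read alongside. Of 21 listed interferon ligand genes, Ifnb1 and Ifng among them beside interferon alphas, epsilon, kappa, zeta and lambda, 0 passed the filter and 18 had 0 counts in all libraries. Ifnz, interferon zeta, had 0, 3 and 1 counts in the rmCIRBP libraries, against 7, 6 and 3 counts in the PBS libraries, and Ifna7, an interferon alpha, had 0 in rmCIRBP and 2 in PBS 3. The counts of Ifnz overlapped between groups at 3 counts, and without a filter its adjusted p was 0.343 (edgeR). In all, the 21 genes took 4 counts in rmCIRBP and 21 in PBS. Interferon alpha and zeta genes lie in families of close copies, and the handling of reads that map to several places is not given in the sources used here, so their counts are uncertain.

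All 4 chains of the type I and the interferon gamma receptors rose after rmCIRBP, while Il10rb did not pass the test. Of 15801 genes tested, 11.5% were called in either direction at an adjusted p of 0.05 (edgeR's quasi-likelihood test, Benjamini-Hochberg), 6.74% were called higher and 4.77% lower. Of the 7 members, 5 passed the filter, and of these 4 were called higher and 0 lower. Ifnar1 and Ifnar2 were called with a log2 fold change of at least 1, as were 3.98% of genes tested. The median log2 fold change of all genes tested was -0.01.

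Ifnar2, the chain that binds type I interferon with high affinity (chromosome 16, 91372783 to 91405589), had 159, 120.2 and 173 CPM in the rmCIRBP libraries, against 46.9, 52.2 and 34.7 CPM in the PBS libraries. The groups lay far apart, with the lowest rmCIRBP library, number 2, still above every PBS library. On the log2 scale the change was 1.76 ± 0.19 (SE; edgeR adjusted p = 0.00146), a 3.39-fold increase with a 95% interval of 2.49 to 4.60. The gene encodes transmembrane and soluble forms in mouse, and counts per gene do not separate them.

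Ifnar1, the signalling partner chain of the same receptor (chromosome 16, 91485238 to 91507441), had 204, 168 and 208 CPM in rmCIRBP and 96.2, 98.5 and 88.8 CPM in PBS. As for Ifnar2, rmCIRBP 2 was lowest of its group and there was no overlap with PBS. The difference on the log2 scale was 1.03 ± 0.12 (SE; edgeR adjusted p = 0.0019), or 2.05-fold with a 95% interval of 1.69 to 2.48.

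Ifngr1, the ligand-binding chain for interferon gamma (chromosome 10, 19591949 to 19610229), had 105, 118 and 110.3 CPM in rmCIRBP and 56.4, 58.3 and 53.7 CPM in PBS. Here rmCIRBP 2 was the highest library, and the spread within each group was small. The log2 change was 0.99 ± 0.10 (SE; edgeR adjusted p = 0.000884), or 1.98-fold with a 95% interval of 1.70 to 2.31. Ifngr2, the accessory chain that brings JAK2 (chromosome 16, 91547072 to 91565623), had 152, 168 and 161 CPM in rmCIRBP and 93.8, 90.6 and 77.3 CPM in PBS. It too was highest in rmCIRBP 2 and lowest in PBS 3, with no overlap between groups. The log2 change was 0.88 ± 0.11 (SE; edgeR adjusted p = 0.00284), or 1.84-fold with a 95% interval of 1.54 to 2.19.

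Il10rb (chromosome 16, 91406164 to 91425834) had 39.2, 33.0 and 41.6 CPM in rmCIRBP and 39.0, 33.9 and 29.3 CPM in PBS. The groups overlapped. The log2 difference was 0.16 ± 0.14 (SE; edgeR adjusted p = 0.514), with a 95% interval of -0.18 to 0.49, or 0.885-fold to 1.40-fold, so the log2 fold changes of the other 4 chains all lay above its interval. Without the libraries highest in smooth muscle genes, rmCIRBP 2 and PBS 1, the log2 difference was 0.36 (edgeR adjusted p = 0.0874), and leaving out single libraries gave 0.06 to 0.27.

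**Figure D1:**
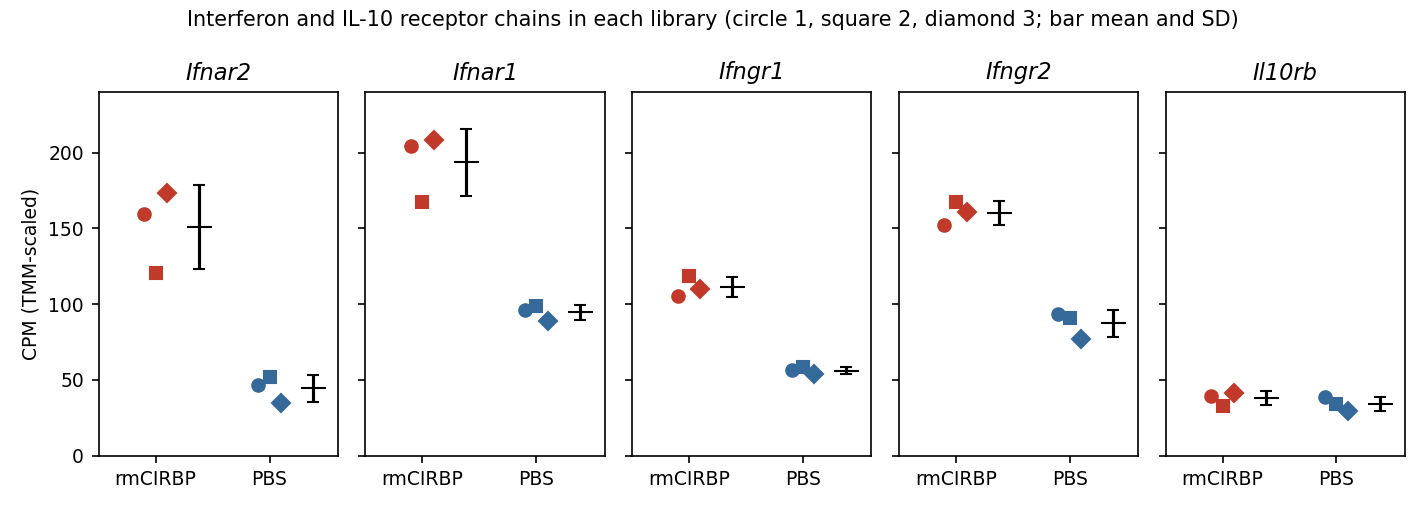
TMM-scaled CPM (y axis, linear) of the 5 receptor chains in the 3 rmCIRBP libraries (red) and the 3 PBS libraries (blue), with symbols for libraries 1, 2 and 3 and bars for mean ± SD. Groups are apart for Ifnar2, Ifnar1, Ifngr1 and Ifngr2, and overlap for Il10rb, where rmCIRBP holds 33.0 to 41.6 CPM and PBS 29.3 to 39.0 CPM.

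The rises of the 4 interferon receptor chains kept their calls in every one of 19 alternative settings. Over these, the log2 fold change was 1.61 to 1.95 for Ifnar2, 0.97 to 1.15 for Ifnar1, 0.92 to 1.03 for Ifngr1 and 0.80 to 0.94 for Ifngr2. Without rmCIRBP 2, the library highest in smooth muscle markers, the values were 1.90, 1.13, 0.94 and 0.84 in the same order. In 17.5% of all genes tested the rmCIRBP libraries all lay above the PBS libraries, as they did for these 4, and in 34.6% the groups were apart in either direction.

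Ifnar2 had a larger fold change than its partner Ifnar1. The ratio of Ifnar2 to Ifnar1 counts was 0.779, 0.717 and 0.833 in the rmCIRBP libraries, against 0.487, 0.529 and 0.391 in the PBS libraries, so that every rmCIRBP library exceeded every PBS library. The mean log2 ratio differed by 0.73, with an exact two-sided permutation p of 0.1 (n = 3 each), which is the smallest that 3 against 3 allows. For the interferon gamma receptor chains the ratio of Ifngr2 to Ifngr1 was 1.448, 1.415 and 1.457 in rmCIRBP and 1.664, 1.556 and 1.441 in PBS, a difference in log2 ratio of -0.11 with overlapping groups (exact two-sided permutation p = 0.3, n = 3 each).

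Per kilobase of annotated exon (GENCODE M21, all exons of a gene merged), the order of the levels differed between groups. In rmCIRBP, Ifnar2 stood at 45.4 ± 8.28 CPM per kb, Ifngr2 at 42.5 ± 2.05, Ifngr1 at 39.1 ± 2.36, Ifnar1 at 32.6 ± 3.77 and Il10rb at 9.97 ± 1.16 (level, mean ± SD, n = 3). In PBS, Ifngr2 stood at 23.2 ± 2.32 CPM per kb, Ifngr1 at 19.7 ± 0.810, Ifnar1 at 15.9 ± 0.855, Ifnar2 at 13.4 ± 2.68 and Il10rb at 8.95 ± 1.27 (level, mean ± SD, n = 3). The first 3 genes of the rmCIRBP order had overlapping libraries from one to the next, and so had Ifnar1 and Ifnar2 in PBS. Ifnar2 was thus the highest of the 5 chains by mean in rmCIRBP, whereas in PBS only Il10rb had a lower mean.

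Of the 5 receptor genes, 4 lie within 193 kb on chromosome 16, read in the same direction in the order Ifnar2, Il10rb, Ifnar1, Ifngr2. The span holds 12 annotated genes in all. Between Il10rb and Ifnar1 lie 59403 bases, and between Ifnar1 and Ifngr2 39630 bases. Il10rb, the member that did not pass, begins 574 bases after the end of Ifnar2, the member with the largest fold change. The ratio of Ifnar2 to Il10rb counts, chosen after the values were seen, was 4.066, 3.639 and 4.165 in rmCIRBP and 1.203, 1.537 and 1.184 in PBS. The difference in log2 ratio was 1.61 (exact two-sided permutation p = 0.1, n = 3 each, the smallest that 3 against 3 allows). Chosen in this way, the ratio describes the 2 fold changes again and is no separate test. Gm21970, annotated on the same strand across both genes, shares 9.46% of the exon length of Ifnar2 and 14.9% of that of Il10rb and had 0 counts, and how reads in the shared stretches were counted is unknown. Ifngr1 lies apart on chromosome 10.

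**Figure D2:**
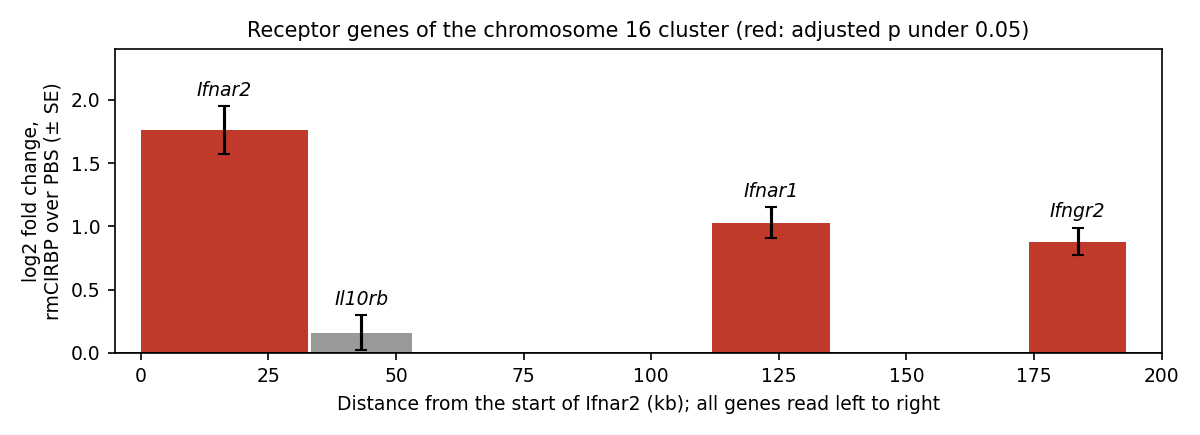
Bars show the log2 fold change, rmCIRBP over PBS (y axis, ± SE), of the 4 receptor genes on chromosome 16, drawn to scale at their distance in kb from the start of Ifnar2 (x axis). Other genes of the span are not drawn. Ifnar2 (1.76), Ifnar1 (1.03) and Ifngr2 (0.88) are called higher and drawn in red, and Il10rb (0.16) between them is not called and drawn in grey.

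Partner chains of IL10RB were scarce. Ifnlr1, which pairs with it for interferon lambda, had 4, 4 and 21 counts in rmCIRBP and 5, 5 and 12 counts in PBS, and Il10ra, which pairs with it for interleukin 10, had 7, 6 and 2 counts in rmCIRBP and 2, 4 and 2 counts in PBS. Neither passed the filter on low counts. Of 7 listed receptor genes of this family beside the members, Ifnlr1 and Il10ra among them, 2 were tested and 0 called. The tested genes were Il20rb, a chain for interleukin 20 and related cytokines (log2 fold change 0.72 ± 0.29, edgeR adjusted p = 0.146), and F3, tissue factor (0.28 ± 0.28, edgeR adjusted p = 0.539, but 0.0498 without PBS 1). The median of these 2 was 0.50. Of 6 interleukin 10 family ligands, 0 were tested and 4 had 0 counts in all libraries.

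Behind the receptors, the kinases and transcription factors moved unequally. Of 7 listed genes, 3 rose and 0 fell, with a median log2 fold change of 0.41. Jak2, the kinase of IFNGR2, had 261, 172 and 215 CPM in rmCIRBP and 66.5, 59.5 and 51.0 CPM in PBS (log2 fold change 1.87 ± 0.18; edgeR adjusted p = 0.000778). Without PBS 2 the number called in this list was 1, and that over all genes went from 1818 to 723.

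Jak1, the kinase that both receptors use, rose by only 0.41 ± 0.10 on the log2 scale (edgeR adjusted p = 0.0420), and leaving out any 1 of the 6 libraries ended its call, with adjusted p from 0.056 to 0.151. Stat2 and Irf9, members of ISGF3, did not pass. Stat2 had 242, 206 and 274 CPM in rmCIRBP and 128, 170.0 and 180.0 CPM in PBS (0.59 ± 0.17; edgeR adjusted p = 0.0564, 0.0144 by DESeq2 and 0.0314 without rmCIRBP 2). Irf9 had a log2 fold change of 0.30 ± 0.18 (edgeR adjusted p = 0.314) and Tyk2, the kinase of IFNAR1, 0.13 ± 0.13 (edgeR adjusted p = 0.539).

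Genes listed as restraining the receptors rose in part. Of 10 listed, 5 rose and 0 fell (median log2 fold change 0.72), and 3 of these 5, Usp18, Isg15 and Socs1, are also counted in the target lists below. Usp18, which binds IFNAR2 and blocks its signalling, had 57.5, 55.3 and 72.1 CPM in rmCIRBP and 16.4, 23.8 and 25.8 CPM in PBS (1.48 ± 0.19; edgeR adjusted p = 0.0029). Isg15, a ubiquitin-like protein listed here because it stabilizes USP18 in human cells, rose by 1.72 ± 0.23 (edgeR adjusted p = 0.00334). Whether it restrains the receptor in these mouse cells was not tested. Ptpn2, a phosphatase of JAK1, rose by 0.83 on the log2 scale, Socs1, which inhibits JAK kinases, by 1.01, and Ptpn1, a phosphatase of TYK2 and JAK2, by 0.68 (edgeR adjusted p 0.0169, 0.0269 and 0.0363). Without PBS 2 the calls of these last 3 ended, with edgeR adjusted p of 0.0744 for Ptpn2, 0.0767 for Socs1 and 0.101 for Ptpn1. They ended also without rmCIRBP 1 (0.0706, 0.0879 and 0.12) or PBS 3 (0.0611, 0.1 and 0.124), those of Socs1 and Ptpn1 also without rmCIRBP 3 (0.0626 and 0.0833), and that of Socs1 also without PBS 1 (0.0521). The number called was 2 without rmCIRBP 1, PBS 2 or PBS 3, and 3 without rmCIRBP 3. Over all genes, 742, 723, 863 and 1387 were called in these settings, against 1818 with all libraries.

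**Figure D3:**
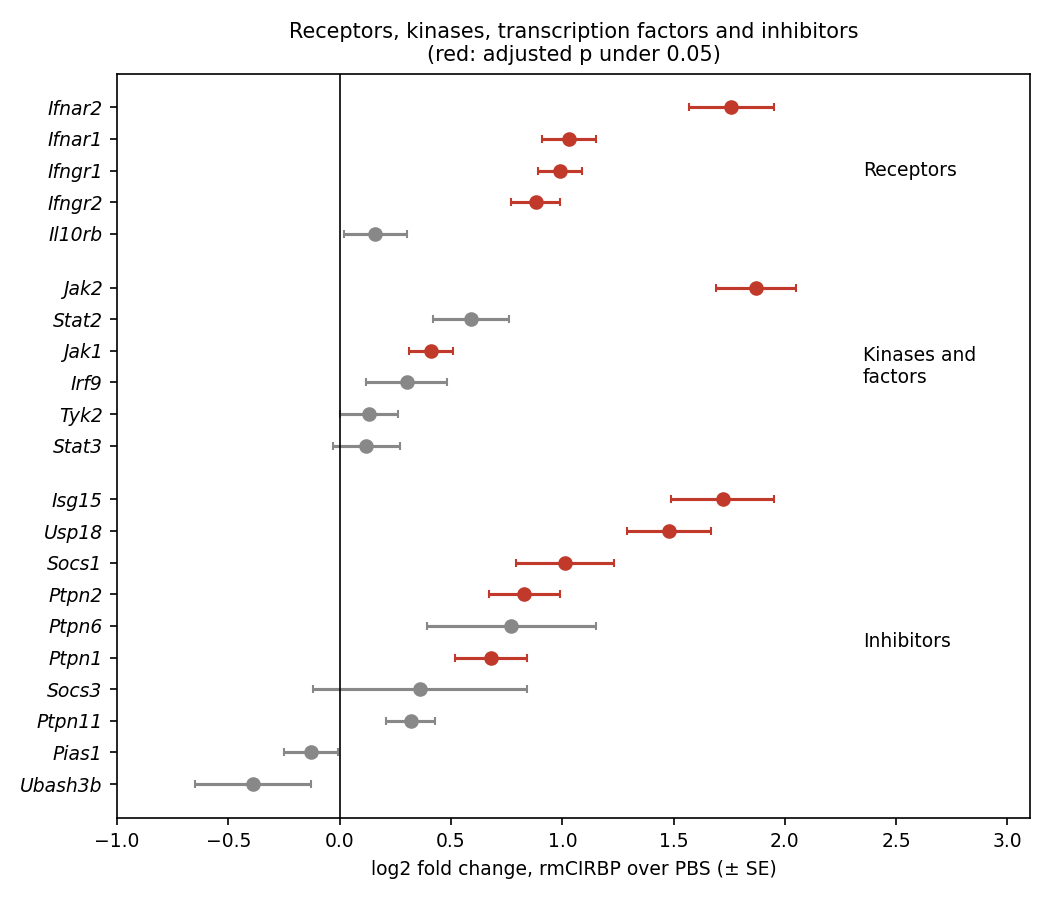
Points show log2 fold changes, rmCIRBP over PBS (x axis, ± SE), of the 5 receptor chains, 6 kinases and transcription factors and 10 genes listed as inhibitors. Red points are called, and among the kinases and factors Jak2 (1.87) stands above Stat2 (0.59), Jak1 (0.41), Irf9 (0.30) and Tyk2 (0.13).

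The genes that switch on Ifnb1 rose in part. Of 21 listed sensors, adaptors, kinases and transcription factors, 20 were tested, 10 rose and 0 fell (median log2 fold change 1.02). Tlr4 (log2 fold change 0.24 ± 0.20; edgeR adjusted p = 0.461) and Ticam1, which encodes TRIF (-0.32 ± 0.17; 0.251), did not pass, and their groups overlapped. Ticam2, an adaptor between TLR4 and TRIF, was under the filter on low counts, with 4, 11 and 3 counts in rmCIRBP and 3, 1 and 5 in PBS. The listed genes with the smallest p were Zbp1, a sensor of Z-form nucleic acid (3.22 ± 0.23; edgeR adjusted p = 0.000219), Nfkb1, the NF-kB subunit p50 (1.34 ± 0.10; 0.000221), Irf1, a transcription factor (1.88 ± 0.15; 0.000305), and Traf3, an adaptor to the kinases of IRF3 (1.42 ± 0.12; 0.000431). Irf3, the main factor of early Ifnb1 induction, had 42.9, 51.1 and 50.1 CPM in rmCIRBP and 46.6, 48.0 and 45.1 CPM in PBS (0.05 ± 0.11; edgeR adjusted p = 0.817), and the groups overlapped. Irf7, the factor that amplifies type I interferon, had 94.8, 58.3 and 145 CPM in rmCIRBP and 22.3, 36.9 and 44.0 CPM in PBS (1.53 ± 0.35; edgeR adjusted p = 0.0305). Its call ended without any 1 library other than rmCIRBP 2, with adjusted p from 0.0548 without PBS 1 to 0.103 without PBS 2. Irf7, Irf1, Zbp1, Ifih1 and Ddx58 of this list are also on the target lists below.

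Known targets of both receptor types rose after rmCIRBP. Of 28 genes known chiefly as ISGF3 targets, 25 rose and 0 fell, with a median log2 fold change of 1.51. Those with the smallest p were Zbp1, Ifi44, an antiviral protein (2.75 ± 0.26; edgeR adjusted p = 0.000749), Herc6, an ISG15 ligase (1.83 ± 0.19; 0.00129), and Cmpk2, a mitochondrial nucleotide kinase (2.43 ± 0.26; 0.00146). The number called was 12 without PBS 2 and 15 without rmCIRBP 1. Over all genes, the number called went from 1818 to 723 and 742 in these settings. Of 23 genes known chiefly as GAS or interferon gamma targets, 18 were tested, 15 rose and 0 fell, with a median of 2.21. Gbp5 and Gbp2, guanylate-binding proteins, Ifi47, an immunity-related GTPase, and Irf1 had the smallest p. Cxcl9, a chemokine named here after its values were seen, had 0 counts in PBS and was at least 52.9-fold higher, against 3 counts over the PBS libraries. Many genes on these lists respond to both interferons and to NF-kB, and the lists were compiled with earlier results of these data known.

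Within the interferon gamma list, 6 genes of MHC class II presentation were looked at after their values were seen. Both that were tested did not pass. Ciita, their master regulator, had 0.809, 0.651 and 1.39 CPM in rmCIRBP and 1.66, 0.976 and 1.85 CPM in PBS (log2 fold change -0.65 ± 0.43; edgeR adjusted p = 0.355), and H2-DMa, a peptide-loading chain, had 150, 138 and 165 counts in rmCIRBP and 153, 160 and 146 counts in PBS (-0.11 ± 0.17; edgeR adjusted p = 0.722). The other 4 stayed under the filter on low counts. Cd74, the invariant chain, had 5, 7 and 7 counts in rmCIRBP and 3, 0 and 4 in PBS, so that its groups did not overlap. For the class II chains the groups overlapped: H2-Ab1 had 6, 13 and 5 counts in rmCIRBP and 12, 2 and 4 in PBS, H2-Eb1 had 7, 9 and 8 in rmCIRBP and 2, 10 and 15 in PBS, and H2-Aa had 0, 0 and 0 in rmCIRBP and 2, 0 and 0 in PBS.

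**Figure D4:**
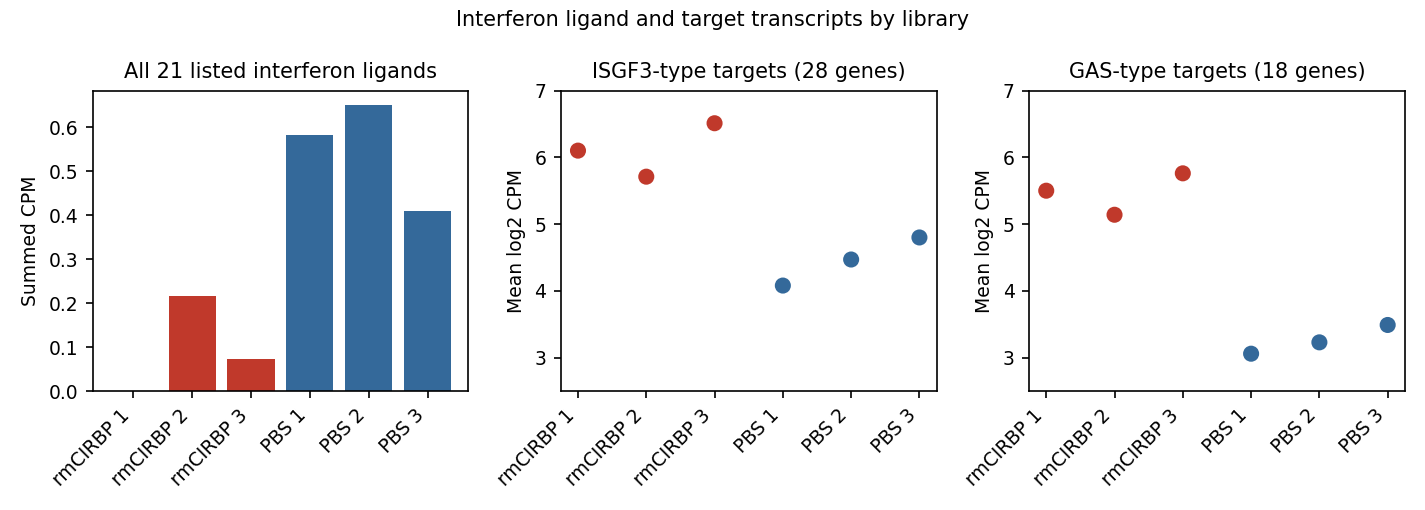
By library, rmCIRBP in red and PBS in blue: summed CPM of the 21 interferon ligand genes (left, y axis from 0), and mean log2 CPM of 28 ISGF3-type (middle) and 18 GAS-type targets (right). Ligands sum to at most 0.217 CPM in rmCIRBP and 0.651 CPM in PBS, and the target means are 5.71 to 6.51 and 5.14 to 5.76 in rmCIRBP, against 4.08 to 4.80 and 3.06 to 3.49 in PBS.

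The protein-coding genes whose log2 CPM most resembled each called chain over the 6 libraries were found by Pearson's r. They were Steap4, a metalloreductase, Vcam1, a leukocyte adhesion molecule, and Serpina3g, a protease inhibitor, for Ifnar1 (r = 0.999 each). For Ifnar2 they were Ifi211, Serpina3i and Bcl3, an NF-kB cofactor (r from 0.996 to 0.998). For Ifngr1 they were Gch1, the first enzyme of tetrahydrobiopterin synthesis, Klhl5 and Ern1, a sensor of unfolded protein (0.997 to 0.998), and for Ifngr2 Tnfsf11, the cytokine RANKL, Wdr55 and Jak1 (0.996 to 0.998). Pearson's r compares the pattern over libraries and not the size of the change. The log2 fold changes of these genes ran from 0.35 for Wdr55, which was not called (edgeR adjusted p = 0.146), to 7.43 for Steap4. All points share the same 6 libraries in 2 groups, and 807 to 1031 of 12839 genes passed r = 0.9 for each chain.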

How the data were processed

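The authors deposited raw counts per gene for 6 libraries, 3 given rmCIRBP and 3 given PBS. The submitters' processing notes name featureCounts, DESeq2, R 4.1.2 and the build GRCm38 (mm10). Not given in the sources used here are the aligner, the strand setting and the treatment of multiply mapped reads, so reads of overlapping genes cannot be told apart. Each column was tied to a sample through the group and number in its name.

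The tests ran in edgeR 4.0.16 under R 4.3.3: filterByExpr by group (15801 genes left), TMM scaling, and the two-sided quasi-likelihood F test of treatment with no other covariate, with Benjamini-Hochberg adjustment over all genes tested at 0.05. A standard error is the log2 fold change over the root of F. The scripts were tested on simulated data. Alternatives used DESeq2 1.42.0, limma 3.58.1, other scalings, filters and thresholds, a replicate block, and each library left out. Lengths came from GENCODE M21, whose starts and ends of the 7 genes equal the deposited ones. No pair of libraries within a group differed by as little as sampling noise (chi-square per degree of freedom at least 14.2).

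Named genes were all 7 members, up to 4 called genes of smallest p per list, pathway genes fixed by name, and the 3 genes most like each called member. Members and lists were chosen with earlier results of these data known. The values of 1 kinase or transcription factor gene, which is counted in its list, are not reported here.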

Additional observations from a re-analysis of the deposited data

How the results depend on the processing

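Of the alternative values, 290 were classed as unchanged, but not all of them could readily change. They include 19 each for the interferon ligand and interleukin 10 family ligand lists, in which 0 genes were tested in the main fit. Another 19, for the number of members called, repeat the calls of the single members. Unchanged meant the same sign and call for fold changes, the same sign for ratios, and within 1.5 times for counts. The other 19 were counts that moved by more than that or from 0 to 1, and 0 values reversed. Within a count classed as unchanged, calls of single genes could still end or be gained. The number of genes called, 1818 (1065 higher, 753 lower), was 608 at a threshold of 0.01, 3066 at 0.1, and 2802 without rmCIRBP 2 and PBS 1 together, a setting chosen after seeing the data. Leaving out 1 library gave 723 (without PBS 2) to 2144 (without PBS 1). Upper quartile scaling gave 925 higher and 1022 lower and moved the median log2 fold change of all genes to -0.07; the called chains stayed higher.

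The number of interferon members called was 4 without any 1 library. Other family receptors gave 0 to 1 without 1 library and 1 without rmCIRBP 2 and PBS 1. Kinases and factors gave 1 to 3 without 1 library and 1 at 0.01. Inhibitors gave 2 to 6 without 1 library, 2 at 0.01 and 3 with the replicate block. ISGF3-type targets gave 12 to 27 without 1 library and 12 at 0.01, GAS-type targets 12 to 15, and Ifnb1 machinery 8 to 13. The cause of these moves was not tested.

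Whether the replicate numbers pair the libraries is not known. Deviations from the group mean correlated at -0.11, -0.17 and 0.25 between same-numbered libraries, and at -0.33 to 0.36 between differently numbered ones. With 3 libraries per group these values cannot settle the pairing. With the replicate block 1258 genes were called, the calls of Jak1 (edgeR adjusted p = 0.107), Socs1 (0.06), Ptpn1 (0.0648) and Dhx58, an ISGF3-type target (0.0577), were lost, that of Ifit3b, another such target, was gained (0.0423), and the log2 fold changes were 1.76 for Ifnar2, 1.03 for Ifnar1, 0.99 for Ifngr1, 0.88 for Ifngr2 and 0.16 for Il10rb. The block gave exact sign-flip permutation p of 0.25 for Ifnar2 to Ifnar1, the smallest 3 pairs allow.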

Other observations

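Ifnar2 and the mean of the ISGF3-type targets ordered the libraries alike within the rmCIRBP group and differently within the PBS group. Among the PBS libraries, the mean log2 CPM of the 28 ISGF3-type targets was 4.08, 4.47 and 4.80 in PBS 1, 2 and 3, whereas Ifnar2 was lowest in PBS 3 at 34.7 CPM. Among the rmCIRBP libraries, the ISGF3-type targets stood at 6.10, 5.71 and 6.51 in libraries 1, 2 and 3, and Ifnar2 was likewise lowest in rmCIRBP 2 and highest in rmCIRBP 3. Ifit1, an antiviral RNA-binding protein that illustrates the spread and was chosen after its values were seen, had 325, 180.2 and 437 CPM in rmCIRBP and 52.8, 99.3 and 143 CPM in PBS. With 3 libraries per group these orders were not tested.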
